A study of Mus musculus with 9 samples.

Results

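The 7 genes described here are genes of platelets and of their parent cells, the megakaryocytes, followed through the lungs of 3 mouse strains: Ppbp, Pf4, Itga2b, Itgb3, Gp9, Gp1bb and Treml1. They are 7 of the 18193 genes that have a probe set to themselves. Every probe set annotated to 1 of these symbols alone was used, 9 among 45037. Of these 9, 8 passed the filter on dim probe sets and were tested among 27022. The genes were selected on the measured Ppbp signal, which was known to be low in SV129 lung, so all differences between SV129 and the other strains are given as a description, with no test. The effect of hypoxia and the difference between BL6 and FVB/N were not used in the choice and were tested. For Ppbp, however, the tests of hypoxia within SV129 and of the interaction use the same SV129 values as the choice. They are therefore not independent of it.

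The groups were homogenates of right lung from SV129, BL6 (C57/BL6) and FVB/N mice after 4 weeks at 50 kPa (hypobaric hypoxia, 2 arrays per strain), and from mice of the same strains after 4 weeks at 85 kPa, the pressure at Denver's altitude (called normoxic, 1 array per strain). The labels name no allele, transgene or drug, and give neither age nor pooling of animals. Nothing in them ties each array to an animal of its own. The p-values therefore measure only the spread between these arrays, which may be technical, and the fits give the lone normoxic array of a strain the same variance as the others. The number of arrays limits the precision. Levels are log2(signal + 16) after quantile normalization, a scale on which fold changes of dim probe sets come out too small, and levels of different probe sets are not compared with each other.

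Markers of the labelled tissue were bright on every array, with means of 13.35 to 13.99 for 8 alveolar epithelial and 11.82 to 12.83 for 9 endothelial genes. Kidney RNA stood out on 2 arrays. Kidney markers (11 genes) had mean levels of 11.84 on array 2 of hypoxic BL6 and 12.75 in normoxic FVB/N, and 5.81 to 6.41 elsewhere. Brown fat and fast muscle markers (8 genes) reached 9.59 in normoxic FVB/N, with 6.21 to 6.68 elsewhere. Cardiac muscle markers (7 genes) also varied, with means of 10.02 to 12.17 in BL6 lung. They were 10.41 to 11.04 in SV129 lung and 10.23 to 10.81 in FVB/N lung.

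Platelets are cell fragments without a nucleus that megakaryocytes shed into blood, and megakaryocytes also lodge in the vessels of the lung. Platelets bind damaged vessel walls through the glycoprotein Ib-IX-V complex, aggregate through integrin αIIbβ3, which binds fibrinogen, and release chemokines from their alpha granules. Their RNA is inherited from the megakaryocyte, and the genes described here are largely driven there by GATA and ETS family transcription factors. In a whole-lung extract, fewer platelets or megakaryocytes and less RNA per cell cannot be told apart. Ppbp, Pf4, Itga2b, Gp9 and Treml1 are each read by 1 probe set alone. Whether the probes bind SV129 transcripts as well as those of the other strains was not tested.

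Ppbp and Pf4 are neighbours in a cluster of CXC chemokine genes on mouse chromosome 5, with starts 3917 bases apart in the promoter table used. In the gene table they lie between Cxcl5 on one side and Cxcl3, Cxcl15, Cxcl1 and Cxcl2 on the other. The 150 bases before the annotated start are shown for this pair, because they differ most in how far SV129 lay below the other strains, and for Itga2b and Gp1bb as members from other chromosomes that lay low with them. The sequences are those of RefSeq for GRCm38.p6, an assembly of C57BL/6J, so they are not SV129 sequence. Capitals mark matches to the GATA motif (GATAA or GATAG preceded by A or T) and to GGAAG, a narrow form of the ETS core, each searched on both strands. The intervals are chr5:90768368-90768517 on the plus strand for Ppbp, chr5:90772285-90772434 on the plus strand for Pf4, chr11:102469884-102470033 on the minus strand for Itga2b and chr16:18622404-18622553 on the minus strand for Gp1bb.
Ppbp: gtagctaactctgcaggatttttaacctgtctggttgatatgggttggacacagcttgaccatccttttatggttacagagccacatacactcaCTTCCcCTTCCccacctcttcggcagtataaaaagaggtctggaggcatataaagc
Pf4: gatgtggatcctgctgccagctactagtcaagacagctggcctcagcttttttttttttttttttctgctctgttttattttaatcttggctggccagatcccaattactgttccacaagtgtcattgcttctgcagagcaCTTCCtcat
Itga2b: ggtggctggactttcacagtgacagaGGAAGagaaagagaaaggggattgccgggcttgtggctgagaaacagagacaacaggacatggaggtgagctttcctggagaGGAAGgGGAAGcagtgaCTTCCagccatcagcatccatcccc
Gp1bb: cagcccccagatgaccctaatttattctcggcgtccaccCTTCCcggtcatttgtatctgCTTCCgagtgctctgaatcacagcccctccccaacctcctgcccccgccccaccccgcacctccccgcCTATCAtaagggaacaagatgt
Of the 6 members with an entry in the table (all but Itgb3), 5 held GGAAG in this window. There were 4 matches before Itga2b, 2 each before Ppbp and Gp1bb and 1 each before Pf4 and Gp9. This string is common, since 47.7% of all 32851 promoter windows of this length held it. The GATA motif was found before Gp1bb alone, against 16% of all windows. No matches overlapped in the windows shown, and a match is only a run of letters.

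Ppbp encodes pro-platelet basic protein, the precursor of the chemokine CXCL7, a main cargo of alpha granules that draws in neutrophils through Cxcr2. Its normalized log2 signal was 7.37 and 7.34 on the hypoxic and 8.19 on the normoxic SV129 arrays. In BL6 lung it was 11.33 and 11.59 on the hypoxic and 11.22 on the normoxic arrays, and in FVB/N lung 12.26 and 12.24 on the hypoxic and 11.79 on the normoxic arrays. The deposited signals were 147 to 283 in SV129 lung, against 2340 to 3060 in BL6 lung and 3660 to 4890 in FVB/N lung. The fitted difference was −3.75 ± 0.257 (SE) against BL6, or 13.4-fold lower, and −4.47 ± 0.257 against FVB/N, or 22.1-fold lower.

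The order of the Ppbp group levels was hypoxic SV129, normoxic SV129, normoxic BL6, hypoxic BL6, normoxic FVB/N and hypoxic FVB/N, from low to high. The step from SV129 to BL6 was several times the spread within any strain. The normoxic BL6 array, at 11.22, lay nearer to the lower hypoxic BL6 array than the hypoxic BL6 arrays lay to each other, so those neighbours do not differ beyond their spread. The normoxic FVB/N array, at 11.79, likewise lay closer to the higher hypoxic BL6 array, at 11.59, than that array did to its replicate.

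Pf4 encodes platelet factor 4, the chemokine CXCL4, which binds heparin and is held in the same granules. It lay at 9.77 and 9.26 on the hypoxic and 9.83 on the normoxic SV129 arrays. In BL6 lung the values were 10.38 and 10.15 on the hypoxic and 10.78 on the normoxic arrays, and in FVB/N lung 11.23 and 10.86 on the hypoxic and 10.86 on the normoxic arrays. All SV129 values were thus below all others, but by far less than for Ppbp, the next gene along the chromosome. The fitted difference was −0.82 ± 0.216 against BL6 (1.76-fold lower) and −1.36 ± 0.216 against FVB/N (2.58-fold lower).

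**Figure D1:**
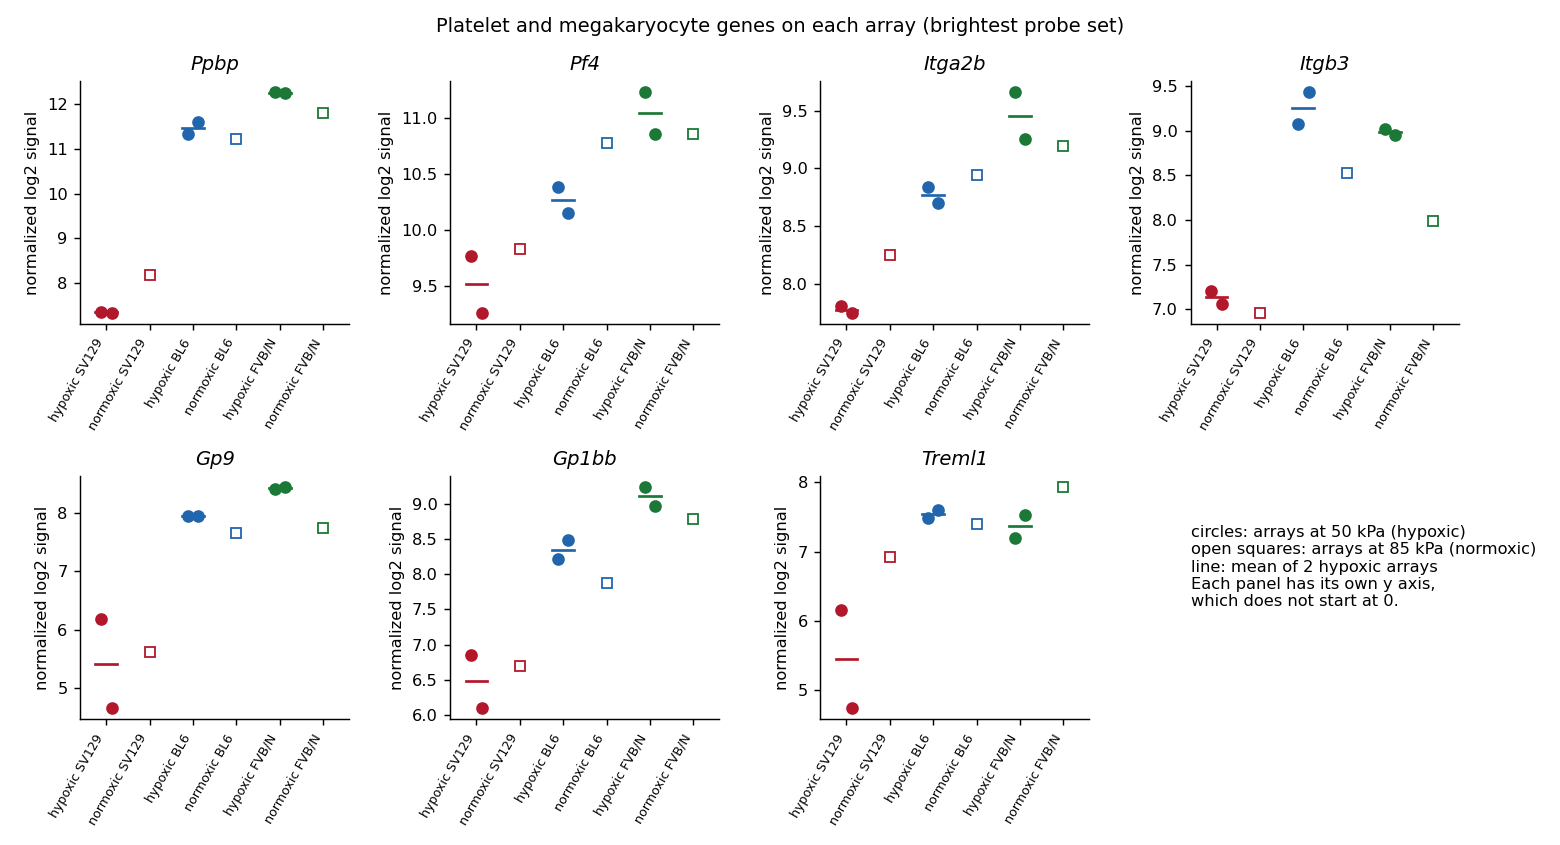
Normalized log2 signal of the brightest probe set of each of the 7 genes on each of the 9 arrays, by strain and pressure, with filled circles for hypoxic arrays, open squares for normoxic arrays and a line at the mean of the 2 hypoxic arrays. For each gene the 3 SV129 arrays lie below the 6 BL6 and FVB/N arrays, and for Ppbp they lie at 7.34 to 8.19 against 11.22 to 12.26.

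Itga2b and Itgb3 encode the αIIb and β3 chains of the fibrinogen receptor. Itga2b, a widely used marker of the megakaryocyte lineage, lay at 7.81 and 7.75 on the hypoxic and 8.25 on the normoxic SV129 arrays. It lay at 8.84 and 8.70 on the hypoxic and 8.94 on the normoxic BL6 arrays, and at 9.66 and 9.25 on the hypoxic and 9.19 on the normoxic FVB/N arrays. The difference was −0.89 ± 0.208 against BL6 and −1.43 ± 0.208 against FVB/N, close in size to that of Pf4.

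Itgb3, whose product also pairs with the αV chain on endothelial and other cells, lay at 7.21 and 7.06 on the hypoxic and 6.96 on the normoxic SV129 arrays. It lay at 9.07 and 9.43 on the hypoxic and 8.53 on the normoxic BL6 arrays, and at 9.02 and 8.95 on the hypoxic and 7.99 on the normoxic FVB/N arrays. The SV129 values were low with little spread (SD 0.127, n = 3), and the differences were −1.94 ± 0.219 against BL6 and −1.58 ± 0.219 against FVB/N. A second, dimmer Itgb3 probe set went the same way, by −1.33 ± 0.377 and −1.23 ± 0.377, with 5.28 to 6.34 in SV129 lung against 6.40 to 7.79 in the other strains.

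Gp9 and Gp1bb encode glycoprotein IX and the β chain of glycoprotein Ib, small subunits of the receptor for von Willebrand factor. Gp9 lay at 6.18 and 4.66 on the hypoxic and 5.62 on the normoxic SV129 arrays, against 7.66 to 7.95 on the BL6 arrays and 7.74 to 8.44 on the FVB/N arrays. The differences were −2.36 ± 0.371 against BL6 (5.14-fold lower) and −2.71 ± 0.371 against FVB/N (6.54-fold lower). These folds depend on the pseudocount, since against the mean of both strains the difference was −2.54 as reported, −3.17 with a pseudocount of 1 and −1.70 with 64. The SV129 mean of 5.49 is below 6.13, the level that the filter on dim probe sets required of the mean over all arrays, so Gp9 was tested because of its level in the other strains. The same holds for the dimmer Itgb3 probe set (SV129 mean 5.73) and for Treml1 (5.95).

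The brighter Gp1bb probe set lay at 6.86 and 6.10 on the hypoxic and 6.70 on the normoxic SV129 arrays, against 7.88 to 8.48 on the BL6 arrays and 8.78 to 9.23 on the FVB/N arrays. The differences were −1.64 ± 0.257 against BL6 and −2.44 ± 0.257 against FVB/N. The other Gp1bb probe set had a mean of 5.76, just under the filter limit of 6.13, and was the only member probe set not tested. Its values overlapped, with 5.15 to 6.22 in SV129 lung against 5.20 to 6.54 in the other strains. A further probe set annotated to both Septin5 and Gp1bb was left out by the rule. The dimmest member just inside the limit was the second Itgb3 probe set, with a mean of 6.59.

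Treml1 encodes TLT-1, a receptor of alpha granule membranes that reaches the platelet surface on activation and binds fibrinogen. It lay at 6.16 and 4.74 on the hypoxic and 6.93 on the normoxic SV129 arrays, which was the widest spread among the members (SD 1.11, n = 3), against 7.40 to 7.60 on the BL6 arrays and 7.20 to 7.93 on the FVB/N arrays. The normoxic SV129 array came close to the lowest array of the other strains. The differences were −1.55 ± 0.423 against BL6 and −1.61 ± 0.423 against FVB/N. Against the mean of both strains the difference was −1.58, and −1.04 without hypoxic SV129 array 5, −2.01 without the normoxic SV129 array, −2.03 with a pseudocount of 1 and −1.02 with 64.

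**Figure D2:**
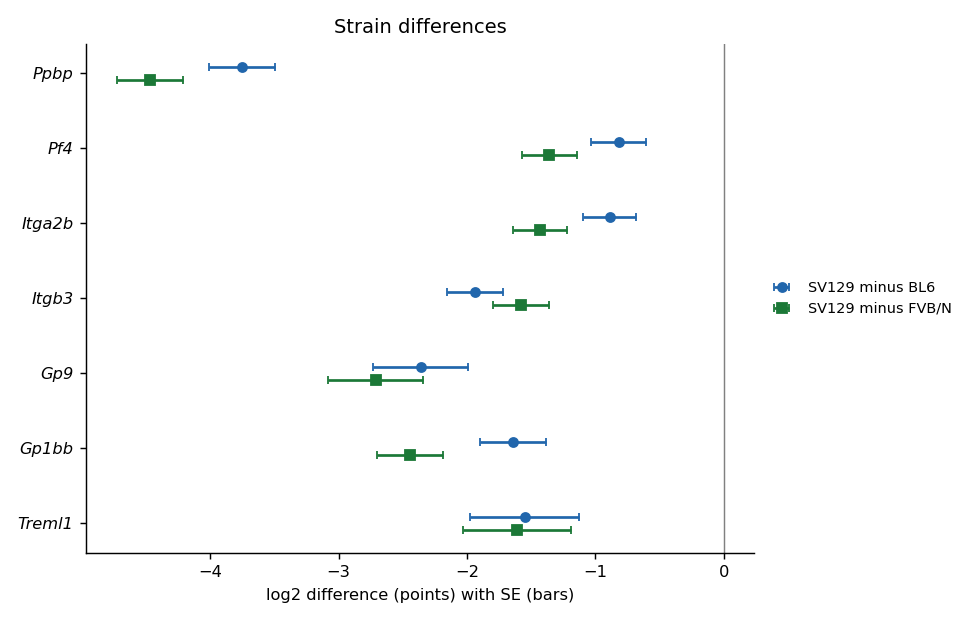
Fitted log2 difference (points) with SE (bars) of the brightest probe set of each gene between SV129 and BL6 (circles) and between SV129 and FVB/N (squares), from the fit over all 9 arrays. All 14 differences are below 0, from −0.82 for Pf4 against BL6 to −4.47 for Ppbp against FVB/N.

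In all, the 3 SV129 arrays lay below the 6 others on 8 of the 8 tested member probe sets. Over all 27022 probe sets tested this was so for 3.3%, and the contrast is that on which the genes were chosen. The untested Gp1bb probe set, left out of this count, overlapped. Gp9, Treml1 and the dimmer Itgb3 probe set were in the count only because of their level in the other strains. Against the mean of the other strains the 7 genes had a median difference of −1.76, with a range of −4.11 to −1.09, beside a median of 0.03 over all probe sets tested.

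With both arrays that held kidney RNA left out, the SV129 difference was −4.22 for Ppbp, −2.64 for Gp9, −2.08 for Gp1bb, −1.87 for Itgb3, −1.57 for Treml1, −1.24 for Itga2b and −1.18 for Pf4, each close to its value from 9 arrays.

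Markers of other blood cells were set beside the platelet genes. The mean of 9 red cell markers was 7.02 to 7.30 in SV129 lung, against 6.80 to 7.31 in BL6 lung, which it overlapped, and 7.33 to 7.65 in FVB/N lung, which it did not. Only 4 of these 9 passed the filter on dim probe sets. All 4 were lower in SV129 than in the mean of the other strains, by −0.45 to −0.01. The mean of 10 neutrophil markers was 7.27 to 8.36 in SV129 lung, against 8.30 to 8.59 in BL6 lung and 8.30 to 9.42 in FVB/N lung. Of 8 tested neutrophil markers 6 were lower in SV129 than in the mean of the other strains (median −1.33, range −1.64 to 0.08). The mean of 6 B cell markers was 8.35 to 8.48 in SV129 lung, against 8.94 to 9.22 in BL6 lung and 8.32 to 9.31 in FVB/N lung. All 6 were lower in SV129 than in the mean of the other strains (median −0.41). The endothelial means overlapped, at 12.15 to 12.74 in SV129 lung against 11.82 to 12.83 in the other strains, and 6 of 9 endothelial markers were higher in SV129 (median 0.10). The part of blood cell content in the low platelet genes was not tested.

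A further 5 lists gave the wider machinery of platelets and megakaryocytes. Of their 60 genes 55 had a probe set of their own and 47 were tested. Between SV129 and the mean of the other strains, 23 were higher and 24 lower, with a median of 0.00, so the lists together did not lie low as the 7 genes did. The lists hold genes that other lung cells also make, such as Vwf and Selp, so this median does not describe platelets alone.

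The 6 largest differences among these genes are named here. Tubb1, the β1-tubulin that forms the marginal band of the platelet, lay at 6.67, 8.11 and 7.90 in SV129 lung, against 9.24 to 9.60 in BL6 lung and 9.96 to 10.05 in FVB/N lung (difference −2.17 ± 0.287). Clec1b, the podoplanin receptor CLEC-2, lay at 7.29, 7.03 and 8.17 in SV129 lung, against 9.20 to 9.40 in BL6 lung and 9.28 to 10.14 in FVB/N lung (−1.97 ± 0.272). Both thus stood apart on every SV129 array, as did Gp5, Alox12 and P2ry12 among the genes named next. Of the 47 tested genes of these lists, 6 had all 3 SV129 arrays below the 6 others, against 3.3% of all probe sets tested.

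Gp5, the glycoprotein V subunit of the same receptor as Gp9 and Gp1bb, differed by −1.19 ± 0.268, Alox12, the platelet 12-lipoxygenase, by −1.10 ± 0.173, and P2ry12, the ADP receptor, by −1.03 ± 0.225. Cxcl2, a neutrophil chemokine of the same cluster as Ppbp and Pf4, lay the other way, at 9.18, 7.10 and 8.27 in SV129 lung, against 5.83 to 6.92 in the other strains (2.01 ± 0.423). Cxcl1 was 0.88 and Cxcl15, a chemokine of lung epithelium, 0.16 higher, so the genes tested from this cluster did not share the direction of Ppbp and Pf4.

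By role, platelet receptors and adhesion genes had a median SV129 difference of −0.51, with 7 of 9 below 0. Signalling and cytoskeletal genes had a median of −0.06 with 8 of 12 below 0, and granule cargo and secretion genes a median of 0.20 with 3 of 12 below 0. Vwf and Selp, made by endothelium as well as by megakaryocytes, differed by 0.26 and 0.63. Megakaryocyte transcription factors had a median of 0.06, and Gata1, Nfe2 and Fli1 differed by −0.03, −0.41 and −0.39. The cluster chemokines and their receptors had a median of 0.16.

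**Figure D3:**
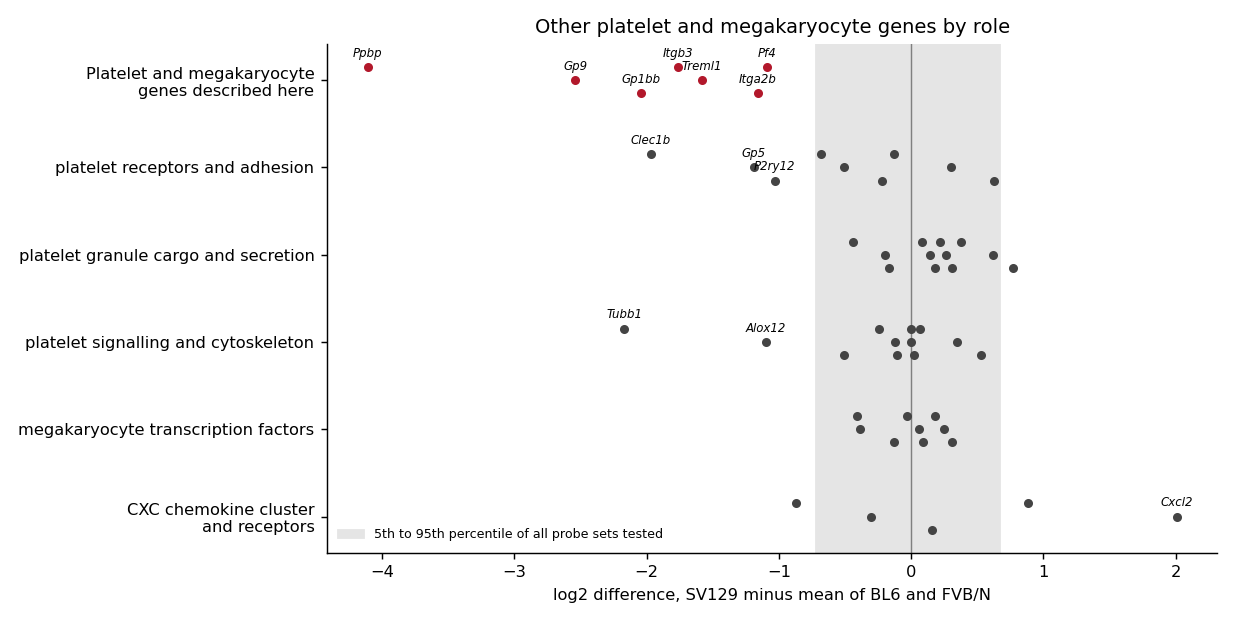
Log2 difference between SV129 and the mean of BL6 and FVB/N for the 7 genes (top row) and for the tested genes of 5 lists by role, 1 point per gene, with names at differences of at least 1 log2 unit and the 5th to 95th percentile of all probe sets tested (−0.72 to 0.67) in grey. The 7 genes lie left of the grey band, while most points of the other lists lie within it.

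The gene whose levels most resembled those of Ppbp over the 9 arrays, among 2677 genes with an SD of at least 0.5, was 2010315B03Rik (Pearson r = 0.991), followed by Casp4 (0.986), Ghitm (0.978), Pdgfd (0.972), Zfp945, Efhd2 and Cd209a (0.969 each) and Clec1b (0.967). Casp4 is an inflammatory caspase, Pdgfd a growth factor of the PDGF family and Cd209a a lectin of dendritic cells. Each of the 8 was also low in SV129 lung, with differences of −3.23 to −1.74, and the correlation is dominated by that step. Of the other members, Gp1bb ranked 10th, Gp9 15th, Itga2b 17th, Pf4 51st, Itgb3 59th and Treml1 84th. The points share arrays and normalization, and no test is attached.

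With the SV129 arrays set aside, the members fell into different patterns over the 6 remaining arrays. Ppbp and Gp1bb had r = 0.967, Pf4 and Itga2b 0.942 and Ppbp and Gp9 0.853. Itgb3 was unrelated to Ppbp (0.070) and ran against Pf4 (−0.458), and Treml1 ran against Itgb3 (−0.536). The median over the 21 pairs of members was 0.416, beside 0.895 over 9 arrays. These are descriptions of few arrays that share strain and pressure.

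BL6 lung lay lower than FVB/N lung for 6 of the 7 genes, but none of the 8 member probe sets passed the threshold of an adjusted p below 0.05 in limma, against 2.07% of all probe sets. At an unadjusted p below 0.05, which 11.9% of all probe sets had, there were 4, Gp1bb (−0.80 ± 0.257, adjusted p = 0.203), Ppbp (−0.72 ± 0.257, adjusted p = 0.275), Pf4 (−0.55 ± 0.216, adjusted p = 0.337) and Itga2b (−0.54 ± 0.208, adjusted p = 0.317). For these 4 of 8 probe sets the 3 BL6 arrays all lay below the 3 FVB/N arrays, as they did for 6.49% of all probe sets. Gp9 differed by −0.35 ± 0.371, Treml1 by −0.05 ± 0.423 and Itgb3 by 0.36 ± 0.219, and these overlapped. With array weights in the fit, whose estimation stopped short of convergence, Ppbp (−0.71, adjusted p = 0.00548), Pf4 (−0.71, adjusted p = 0.0323) and Itga2b (−0.62, adjusted p = 0.0346) passed. With both arrays that held kidney RNA left out, 0 member probe sets passed (lowest adjusted p = 0.262). Blood cell markers differed between these strains as well. The red cell mean was 6.80 to 7.31 in BL6 lung against 7.33 to 7.65 in FVB/N lung, and 4 of 4 tested red cell markers were lower in BL6 (median −0.58), with Hbb-b2, a β-globin, past the threshold (−1.73, adjusted p = 0.00687). Of 8 tested neutrophil markers 5 were lower, with Csf3r past the threshold (−1.58, adjusted p = 0.0144), and 3 higher, with Lcn2 past it (1.56, adjusted p = 0.00765). Their part in the platelet gene values was not tested.

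None of the 47 tested pathway genes passed between BL6 and FVB/N in limma, against 2.07% of all probe sets, and 7 had an unadjusted p below 0.05, against 11.9%. The smallest p-values were those of Cxcl15 (0.47 ± 0.115, adjusted p = 0.0841), Cxcl1 (−1.33 ± 0.325, adjusted p = 0.0857) and Mmrn1, which encodes the factor V binding protein multimerin (0.78 ± 0.192, adjusted p = 0.0872). Other probe sets of Cxcl1 differed by −2.32 (adjusted p = 0.0103) and −0.72 (adjusted p = 0.321), and another of Cxcl15 by 0.86 (adjusted p = 0.00932), in the same directions as the brightest ones. Without the normoxic FVB/N array 2 pathway genes passed, Fermt3 and Cxcr2.

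Hypoxia was compared with normoxia across the 3 strains together. None of the 8 member probe sets passed in limma, against 3.76% of all probe sets, and 1, that of Itgb3, had an unadjusted p below 0.05, against 22.2%. Beside them, 8 of 8 tested neutrophil markers had negative values (median −0.78, 0 past the threshold), as had 4 of 4 red cell markers (median −0.58, 1 past it). Of 9 endothelial markers 7 had positive values (median 0.49), with Emcn, an endothelial sialomucin, past the threshold (1.43, adjusted p = 0.00621). The part of these cells in the member values, that of Itgb3 included, was not tested. Of the 7 genes 3 lay higher and 4 lower in hypoxic lung, with a median of −0.05 beside 0.04 over all probe sets tested. Among the brightest probe sets Itgb3 had the largest positive value, at 0.63 ± 0.19 (1.55-fold, adjusted p = 0.099), and its second probe set had 0.65 ± 0.326 (adjusted p = 0.281).

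On the brighter Itgb3 probe set each of the 6 hypoxic arrays lay above the normoxic array of its strain, which was so for 14.5% of all probe sets tested. In SV129 lung the hypoxic arrays were at 7.21 and 7.06 against 6.96, in BL6 lung at 9.07 and 9.43 against 8.53 and in FVB/N lung at 9.02 and 8.95 against 7.99. The value was 0.49 (adjusted p = 0.374) once both arrays that held kidney RNA were left out, 1 of which is the normoxic FVB/N array. With array weights, whose estimation stopped short of convergence, the value was 0.83 (adjusted p = 0.0301).

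The other values for hypoxia were 0.26 ± 0.321 for Gp9 (adjusted p = 0.677), 0.19 ± 0.222 for Gp1bb (adjusted p = 0.655), −0.05 ± 0.223 for Ppbp (adjusted p = 0.923), −0.13 ± 0.18 for Itga2b (adjusted p = 0.716), −0.21 ± 0.187 for Pf4 (adjusted p = 0.544) and −0.63 ± 0.366 for Treml1 (adjusted p = 0.346). Treml1 was 4.74 on hypoxic SV129 array 5, lower than on any other array. Without the normoxic SV129 array the value of Ppbp was 0.35 (adjusted p = 0.325).

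**Figure D4:**
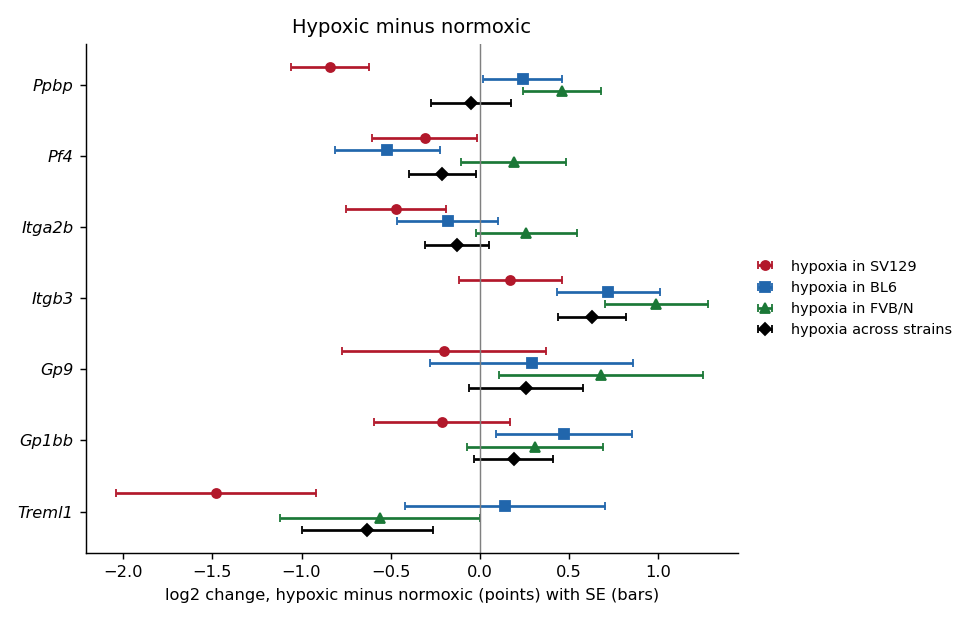
Fitted log2 change, hypoxic minus normoxic (points), with SE (bars), of the brightest probe set of each gene in SV129, BL6 and FVB/N lung and across the strains. Itgb3 is above 0 in each strain (0.17, 0.72 and 0.99), and Ppbp is at −0.84 in SV129 but at 0.24 and 0.46 in BL6 and FVB/N.

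Within single strains 0 of the 8 member probe sets passed in limma in SV129, BL6 or FVB/N, with 2, 1 and 1 at an unadjusted p below 0.05, against 7.58%, 12.5% and 26.1% of all probe sets. Over all probe sets 0%, 0.0148% and 6.8% passed in these strains, and the normoxic FVB/N array is one of those that held kidney RNA. In FVB/N the median over all probe sets tested was 0.17, beside 0.31 over the 7 genes. In SV129 lung Ppbp was at 7.37 and 7.34 on hypoxic arrays against 8.19 on the normoxic one (−0.84 ± 0.221, adjusted p = 0.464), and Treml1 at 6.16 and 4.74 against 6.93 (−1.48 ± 0.561, adjusted p = 0.607). The Treml1 value was −0.77 without hypoxic array 5 of this strain and −2.20 without its hypoxic array 2. In BL6 and FVB/N lung the Ppbp change was 0.24 ± 0.221 (adjusted p = 0.712) and 0.46 ± 0.221 (adjusted p = 0.239), with both hypoxic arrays above the normoxic array. Itgb3 had its largest value in FVB/N, at 0.99 ± 0.289 (adjusted p = 0.0809).

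Whether the hypoxia effect differed between strains was tested as an interaction. None of the 8 probe sets passed in limma, nor did any of the 27022 (0%), and 1 had an unadjusted p below 0.05, against 12.3% of all probe sets. It was Ppbp, for which the SV129 value had the opposite sign to those in BL6 and FVB/N (unadjusted p = 0.0079, adjusted p = 0.241). The adjusted p of the other members ran up to 0.97.

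Of the 47 tested pathway genes 2 rose with hypoxia, 0 fell and 45 did not pass, against 1.94% of probe sets that rose and 1.82% that fell. The median of the lists was 0.08, beside 0.04 over all probe sets. Runx1, a transcription factor needed for megakaryocyte maturation that also acts in other blood cells, lay at 9.36 to 10.16 on the 6 hypoxic arrays, against 8.34, 8.77 and 8.83 on the 3 normoxic arrays (1.03 ± 0.187, 2.04-fold, adjusted p = 0.0255). Itga2, the α2 chain of a collagen receptor of platelets and epithelium, lay at 7.39 to 8.15 on hypoxic arrays, against 6.59 to 6.86 on normoxic arrays (0.89 ± 0.202, 1.85-fold, adjusted p = 0.0474).

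The groups did not overlap for either gene, but neither passed once both arrays that held kidney RNA were left out (Runx1 0.97, adjusted p = 0.116, and Itga2 0.92, adjusted p = 0.18). Itga2 did not pass with any single array left out (adjusted p from 0.0513 to 0.18). Runx1 did not pass without hypoxic BL6 array 5, without either hypoxic FVB/N array or without any 1 of the normoxic arrays (adjusted p up to 0.123). Of 5 other tested Runx1 probe sets 0 passed, with changes of −0.28 to 0.49. Vps33b, needed for alpha granule formation, had the next smallest p (0.60 ± 0.182, adjusted p = 0.0996). The dimmer probe set of Cxcl15 passed (0.54, adjusted p = 0.0371), while the brighter one had 0.26 (adjusted p = 0.174). Gata1 (0.28, adjusted p = 0.611), Nfe2 (0.20, adjusted p = 0.658) and Tubb1 (−0.22, adjusted p = 0.691) did not pass.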

How the data were processed

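Right lungs were snap frozen, RNA was purified on silica columns and labelled with biotin by the Affymetrix manual, per the labels' protocols. The deposited table holds a linear intensity signal for every probe set on 9 arrays. Which software made it is not stated in the labels. In the values, the authors' scaling shows as a common mean of 500 on each array once the highest and lowest 2% are trimmed. Groups came from array titles, and 12 further arrays that the submitters mention were not analysed here.

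With 64 controls removed, log2(signal + 16) was quantile normalized and the dimmest 40% by mean over 9 arrays were dropped. Then limma 3.58.1 in R 4.3.3 (lmFit, eBayes with intensity trend) was fitted to 27022 probe sets, with Benjamini-Hochberg adjustment over all. Hypoxia and strain effects came from a strain plus condition model (5 residual degrees of freedom), and effects within strains and the interaction from a 6-group model (3 residual degrees of freedom). A gene is given by its brightest probe set. Members and lists were chosen with earlier results of these data known.

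Pathway genes were named when past the threshold or, with fewer than 3 past it, as the 3 smallest p-values, and for SV129 as the 6 largest differences. On simulated data of 27022 probe sets, the hypoxia fit across strains recovered 43 of 100 changes of 1 and 93 of 100 of 2 log2 units, with 10 false calls. The fit of BL6 minus FVB/N recovered 22 and 92, with 7 false calls, and that of hypoxia within SV129 recovered 4 and 60, with 9 false calls. The simulated noise was normal and independent between arrays, so these rates may not carry over to arrays with RNA of other tissues. Alternatives varied normalization, pseudocount, filter, eBayes options, array weights, model and arrays left out.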

Additional observations from a re-analysis of the deposited data

How the results depend on the processing

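Array weights, whose estimation stopped short of convergence, changed most: 3 member probe sets passed between BL6 and FVB/N (Itga2b, Ppbp and Pf4) and 1 with hypoxia (Itgb3), against 0 for both under each other alternative. Pathway genes past the threshold between BL6 and FVB/N, 0 in the reported fit, numbered 7 with array weights, 1 without both arrays with kidney RNA, 1 with the 6 hypoxic arrays alone, 2 in the 6-group model and 0 to 2 with single arrays left out. For hypoxia, 2 in the reported fit, they numbered 3 with median centring (Runx1, Itga2 and Cxcl15), 1 with pseudocount 64, no filter, a 60% filter, array weights or the 6-group model, 0 without the kidney arrays and 0 to 1 with single arrays left out. The SV129 difference of Ppbp was −4.52 with array weights, −4.52 with the 6 hypoxic arrays alone and −4.51 to −3.95 with single arrays left out. With pseudocount 64 the SV129 difference was −1.61 for Gp1bb and −1.47 for Itgb3, against −2.04 and −1.76 as reported.

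No value that changed sign passed in any setting run. The hypoxia value of Ppbp was 0.01 with median centring, 0.00 with pseudocount 64, 0.33 with array weights and −0.30 to 0.35 with single arrays left out. That of Treml1, −0.63 as reported, was 0.05 with array weights and −1.02 to −0.21 with single arrays left out, and that of Itga2b −0.32 to 0.04 with single arrays left out. In SV129, Gp1bb spanned −0.60 to 0.16 and Gp9 −0.96 to 0.56 with single arrays left out. Between BL6 and FVB/N, Treml1 was 0.04 on the authors' scaling, 0.09 with array weights, 0.18 with hypoxic arrays alone and −0.22 to 0.33 with single arrays left out. The causes were not tested.

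Same-numbered hypoxic arrays did not deviate together (correlations of −0.188 to −0.026). Within a strain, however, the deviations of the 2 hypoxic arrays are mirror images, and lone normoxic arrays have none. Whether the numbers pair arrays therefore cannot be decided. With a replicate block, possible for strain contrasts alone since number 1 marks the normoxic arrays, Treml1 was 0.21 and Ppbp −0.63 (adjusted p = 0.607) between BL6 and FVB/N, and 0 member probe sets passed. Effects within a strain could not be estimated without its only normoxic array, and array weights were run for the across-strain model alone.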
